A study of Mus musculus with 4 samples.

Results

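The small heat shock proteins are a family of chaperones that hold damaged or unfolding proteins in a refoldable state without using ATP. Each has a conserved alpha-crystallin domain, and the members form mixed oligomers with each other. Striated muscle makes several of them in quantity, where they bind desmin, titin, filamin and actin and protect the contractile apparatus. The 7 genes described are Hspb1, Hspb2, Hspb3, Hspb6, Hspb7, Hspb8 and Cryab. Every probe set that the platform annotation assigns to 1 of these genes alone was taken, which gave 14 of the 45037 probe sets on the array and 7 of 18193 named genes. The family was chosen by the Hspb7 signals of these same arrays, which were lower in the knockout at all its probe sets, so the genotype differences of its members are given below as a description, with no test.

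The data are Affymetrix expression arrays of mouse heart ventricle at embryonic day 17.5, from littermates of a C57BL/6 X SV129 background. The knockout (KO) group holds 2 arrays of HDAC2-deficient ventricles, each from a pool of 3 animals, and the wild-type (WT) group 2 arrays, each from a pool of 2 animals. HDAC2 is a class I histone deacetylase, and the design asks what its loss changes in the embryonic ventricle. The sources used here do not give the allele or whether the deletion was in all cells. Nothing in the labels says how the pools were made up beyond genotype and size, so p-values measure only the spread between these pools.

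The source label of both KO samples names wild-type tissue, while their titles say KO, so Hdac2 was read first. At 1445684_s_at, the brightest of its probe sets, it read 31.4 and 21.0 on the KO arrays, with no Present call. It read 1189 and 1421 on the WT arrays, so KO was at least 50.6-fold lower (-5.66 ± 0.21 log2). The probe set entered the fit only through WT, where it is high, so its fall is a description. The other Hdac2 probe sets also had no Present call in KO. They read 0.3 and 0.2 in KO against 451 and 425 in WT at 1449080_at. At the dim 1439704_at they read 24.3 and 12 in KO against 48.8 and 43.2 in WT. The genotype labels of the titles were used throughout. Signals are MAS5 values on a linear scale, and Present is MAS5's call that a probe set is detected. The KO arrays had Present calls on 43.1% and 43.7% of probe sets, against 43.1% and 42.4% on the WT arrays. All 18 genes of a list of cardiomyocyte markers were Present on every array, with summed signals of 176860 and 186310 in KO and 183286 and 180629 in WT, and none of 18 passed the test in either direction (1 at unadjusted p under 0.05 in limma). Xist, the RNA of the inactive X chromosome, read 548 and 794 in KO against 80.5 and 90.1 in WT at 1436936_s_at. The labels do not give the sex of the embryos, and its part in the results was not tested.

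Promoter sequence was available for 5 of the 7 genes, with 2 start sites for Hspb6. The 250 bases before the annotated start of 3 genes are shown 5′ to 3′, from RefSeq on GRCm38.p6. They are the promoter of Hspb7, the member whose signal differed most between the genotypes, and those of Hspb1 and Hspb6, whose signals differed little. Capitals mark GAANNTTC, an inverted pair of the repeats that make up a heat shock element, the binding site of the heat shock factors.
Hspb7, chr4:141420529-141420778, plus strand: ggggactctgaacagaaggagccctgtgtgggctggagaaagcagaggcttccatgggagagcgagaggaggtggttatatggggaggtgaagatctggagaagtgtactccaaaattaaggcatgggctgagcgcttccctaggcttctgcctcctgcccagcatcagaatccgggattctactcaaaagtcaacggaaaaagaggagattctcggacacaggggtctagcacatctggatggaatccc
Hspb1, chr5:135887669-135887918, plus strand: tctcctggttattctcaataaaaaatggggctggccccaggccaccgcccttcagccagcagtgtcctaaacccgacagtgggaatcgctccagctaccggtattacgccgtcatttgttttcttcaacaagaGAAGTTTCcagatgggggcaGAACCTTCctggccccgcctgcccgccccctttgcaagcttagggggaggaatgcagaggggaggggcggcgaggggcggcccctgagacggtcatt
Hspb6, chr7:30553051-30553300, plus strand: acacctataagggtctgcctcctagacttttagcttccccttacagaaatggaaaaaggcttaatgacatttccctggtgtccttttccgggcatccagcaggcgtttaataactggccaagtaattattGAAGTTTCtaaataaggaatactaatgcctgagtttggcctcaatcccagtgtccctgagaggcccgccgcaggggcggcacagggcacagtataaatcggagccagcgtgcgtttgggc

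The letters GAANNTTC, which read the same on both strands, occurred 2 times in the Hspb1 window, beginning 117 and 97 bases before the start. They occurred 1 time in this Hspb6 window, 120 bases before the start, and 1 time in that of Hspb3, 224 bases before it. The windows of Hspb7, Hspb8 and the other Hspb6 start held no match. Of the 32851 promoter windows of the same length in the table, 6.69% held GAANNTTC. The other orientation of the pair, TTCNNGAA, was in 7.17% of all windows and in none of the members'. The letters TATAAA, those of a TATA box, were searched on both strands. They began 29 bases before the start in the Hspb6 window shown and 11 bases before it in that of Hspb3. Of all windows, 12.4% held them. A match, or none, describes only the letters of these windows.

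Hspb7 was lower in KO ventricles at each of its 3 probe sets. It encodes the cardiovascular heat shock protein, which is made mainly in heart and skeletal muscle and is needed for heart development in the mouse. The brightest probe set, 1434927_at, read 3737 and 2758 on the KO arrays, against 5833 and 6198 on the WT arrays. The second, 1421290_at, read 2038 and 1850 in KO, against 4496 and 3911 in WT. The dimmest, 1421289_at, read 174 and 232 in KO, against 1118 and 612 in WT. At all 3 both KO pools lay below both WT pools and every call was Present. As a ratio, the WT pools differed most from each other at the dimmest probe set.

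As group means, Hspb7 read 3248 ± 692 in KO and 6016 ± 258 in WT at 1434927_at (SD, n = 2 each). At 1421290_at the means were 1944 ± 133 in KO and 4204 ± 414 in WT. At 1421289_at they were 203 ± 41.4 in KO and 865 ± 358 in WT. On the log2 scale, KO minus WT was -0.91 ± 0.12 at 1434927_at, -1.11 ± 0.10 at 1421290_at and -2.04 ± 0.23 at 1421289_at (± moderated standard error from limma). KO signal was therefore 53.4%, 46.3% and 24.3% of WT signal, in that order. In whole ventricle, fewer cells of a type and less RNA per cell cannot be told apart. The annotation gives 1421289_at and 1421290_at the same source transcript, yet their differences were -2.04 and -1.11, and that gap was not tested.

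**Figure D1:**
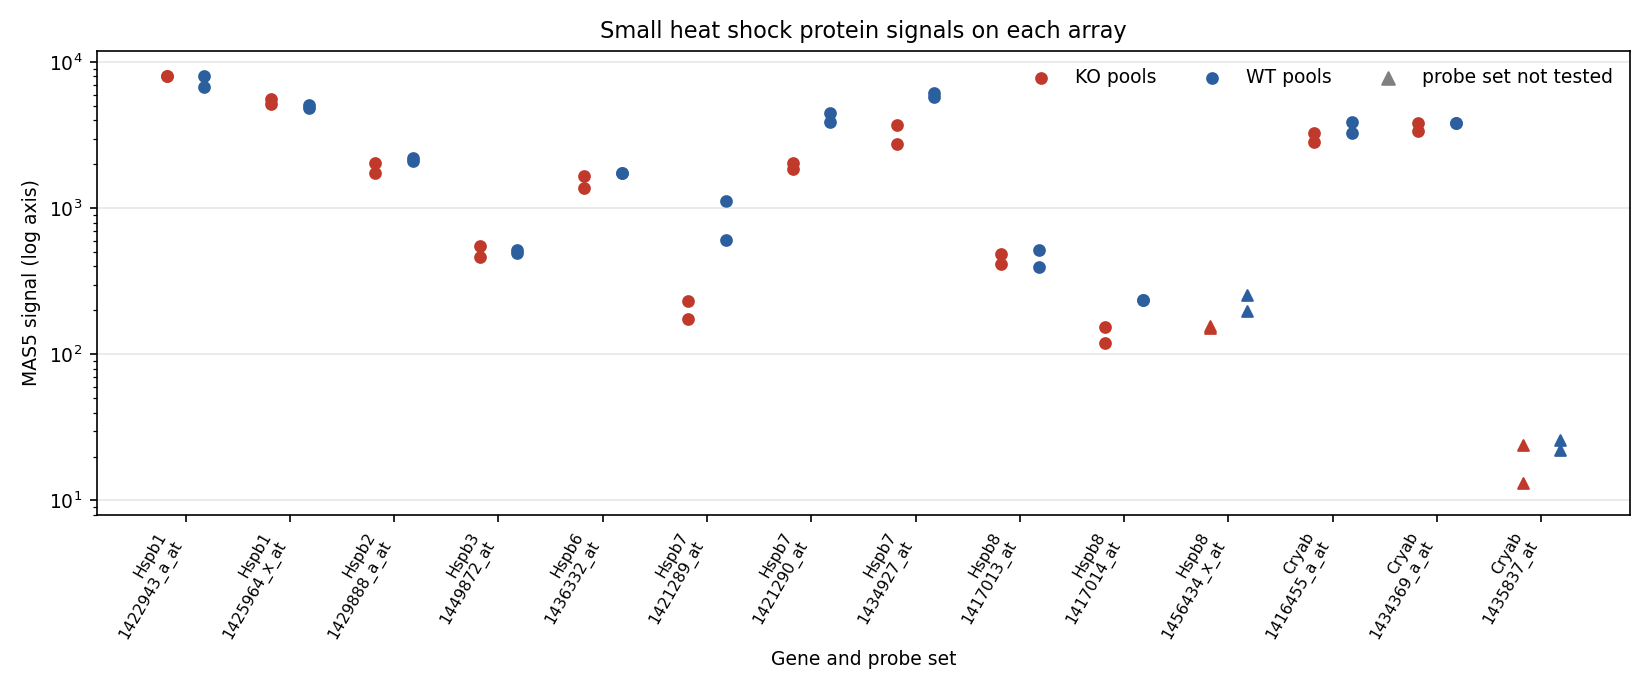
MAS5 signal (log axis) of each of the 14 small heat shock protein probe sets, with the 2 KO pools in red left of the 2 WT pools in blue. Triangles mark the 2 probe sets that were not tested. The KO and WT points separate widely at all 3 Hspb7 probe sets, where KO signal was 24.3% to 53.4% of WT signal, and lie close together at both Hspb1 probe sets.

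Since both KO pools lay below both WT pools, leaving out 1 array could change the size of the Hspb7 differences but not their sign. They ran between -1.12 and -0.69 at 1434927_at, between -1.21 and -1.01 at 1421290_at and between -2.48 and -1.60 at 1421289_at. The array files also hold a signal log ratio, MAS5's probe-by-probe log2 comparison of each array with a baseline array that is not named. At 1434927_at this ratio was 8.9 and 8.8 in KO against 9.3 in both WT pools, a difference of -0.45, which is smaller than the -0.91 of the log2 signals. It gave -0.95 at 1421290_at and -2.5 at 1421289_at. Both measures come from the same arrays, so their shared direction adds no support, and the size at the brightest probe set differed. RNA length, read as the ratio of 3′ to 5′ signal of the actin control, stood at 2.75 and 2.42 in KO against 1.85 and 2.32 in WT, and its part in these differences was not tested.

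Of the 14 member probe sets, 12 were Present on every array and entered the fit over 19065 probe sets. The fit took any probe set detected on both arrays of either group. Over the whole array it called 0.383% of the tested probe sets higher and 0.960% lower in KO, and no call is counted for the members, whose own signals chose them. Both KO arrays lay below both WT arrays at 8 of the 12, beside 22.5% of all tested probe sets, and above them at 1, beside 25.0%. The median difference was -0.20 over the 12 and -0.092 over the 9 outside Hspb7, against 0.014 over all tested probe sets. Since Hspb7 chose the family, nothing is read from these counts.

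**Figure D2:**
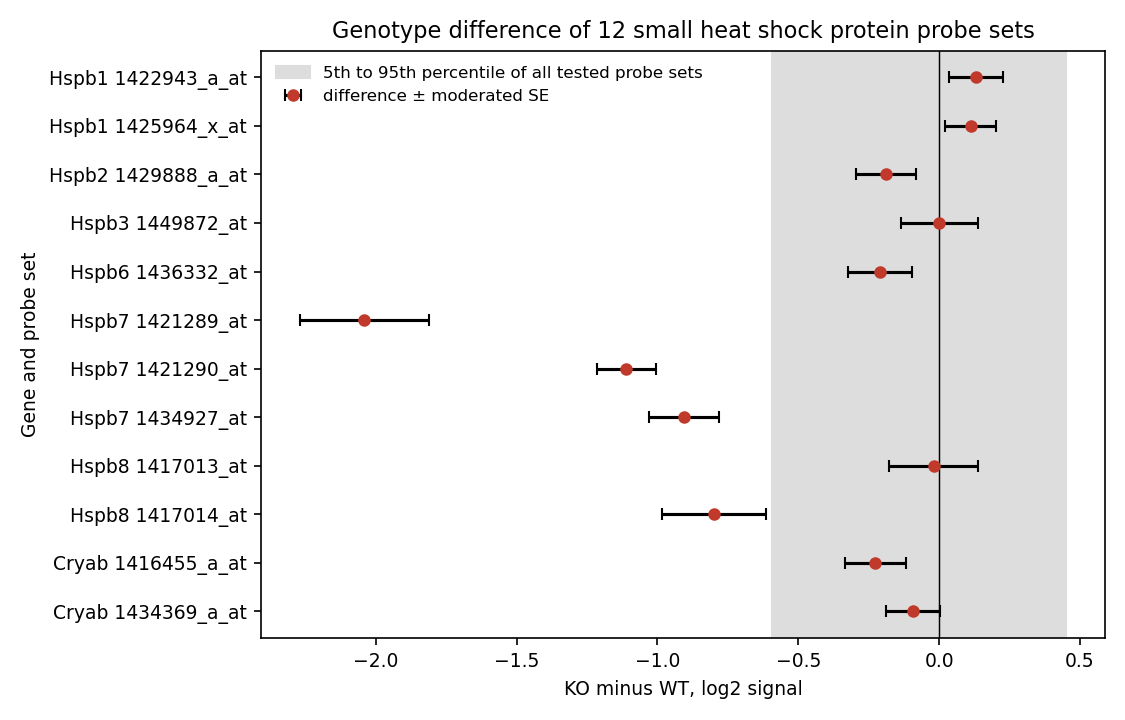
KO minus WT difference of log2 signal (x axis) for the 12 tested small heat shock protein probe sets, as points with the moderated standard error. The grey band spans the 5th to the 95th percentile of all tested probe sets, -0.59 to 0.45. The 3 Hspb7 points, at -2.04, -1.11 and -0.91, and the Hspb8 probe set 1417014_at, at -0.80, lie left of the band, and the other 8 lie inside it.

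Hspb1 and Cryab, the broadly made members with the best known chaperone activity, differed little. Hspb1, called HSP25 in the mouse, binds actin filaments and is phosphorylated under stress. At 1422943_a_at it read 8082 and 8038 in KO against 8049 and 6725 in WT, and the groups overlapped. At 1425964_x_at it read 5200 and 5604 in KO against 5122 and 4874 in WT, the 1 tested member probe set at which both KO pools lay above both WT pools. The differences were 0.13 ± 0.096 and 0.11 ± 0.090. That of 1422943_a_at rested on WT replicate 2, without which it was 0.0019.

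Cryab encodes alphaB-crystallin, which binds desmin and titin and is a major chaperone of heart muscle. It read 2844 and 3259 in KO against 3874 and 3276 in WT at 1416455_a_at, where KO replicate 2 lay just under WT replicate 2. At 1434369_a_at it read 3398 and 3820 in KO against 3837 and 3842 in WT. The groups did not overlap at either, with differences of -0.23 ± 0.11 and -0.092 ± 0.095. Both depended on single arrays, at -0.11 without WT replicate 1 for 1416455_a_at and -0.0076 without KO replicate 1 for 1434369_a_at. The remaining Cryab probe set, the dim 1435837_at, read 24.1 and 13.1 in KO against 25.9 and 22.1 in WT and was not tested, being Present on 1 array of each group.

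Hspb2 and Hspb3 form a complex with each other in muscle. Hspb2, which also binds the kinase of myotonic dystrophy, DMPK, read 2048 and 1758 in KO against 2210 and 2119 in WT at 1429888_a_at. The groups did not overlap, and the difference was -0.19 ± 0.11, with -0.079 without KO replicate 2 and -0.30 without KO replicate 1. In the gene table Hspb2 overlaps Cryab, and whether the probes of either gene read transcripts of the other was not tested. Hspb3 read 468 and 549 in KO against 520 and 493 in WT at 1449872_at. The KO pools lay on either side of the WT pools, and the difference, 0.00090 ± 0.14, changed sign with the array left out, between -0.11 and 0.12, and stood at -0.030 with quantile normalization or median centring.

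Hspb6, which protein kinase A phosphorylates in heart and smooth muscle, read 1658 and 1374 in KO against 1754 and 1740 in WT at 1436332_at. The 2 groups did not overlap, but the KO pools lay further from each other than KO replicate 1 from the WT pools. The difference was -0.21 ± 0.11, and -0.076 without KO replicate 2.

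Hspb8, which works with the cochaperone Bag3 to send damaged filamin for degradation, gave probe sets that disagreed. At 1417014_at it read 154 and 119 in KO against 235 and 236 in WT, with no overlap and a difference of -0.80 ± 0.18. At the brighter 1417013_at it read 486 and 416 in KO against 397 and 522 in WT, with the KO values inside the WT range and a difference of -0.019 ± 0.16. The difference at 1417013_at turned to 0.18 without WT replicate 2 and to 0.094 without KO replicate 2. At 1456434_x_at, which had no Present call on any array and was not tested, it read 156 and 151 in KO against 198 and 254 in WT. Both of the first probe sets are assigned the same source transcript, and their gap was not tested.

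**Figure D3:**
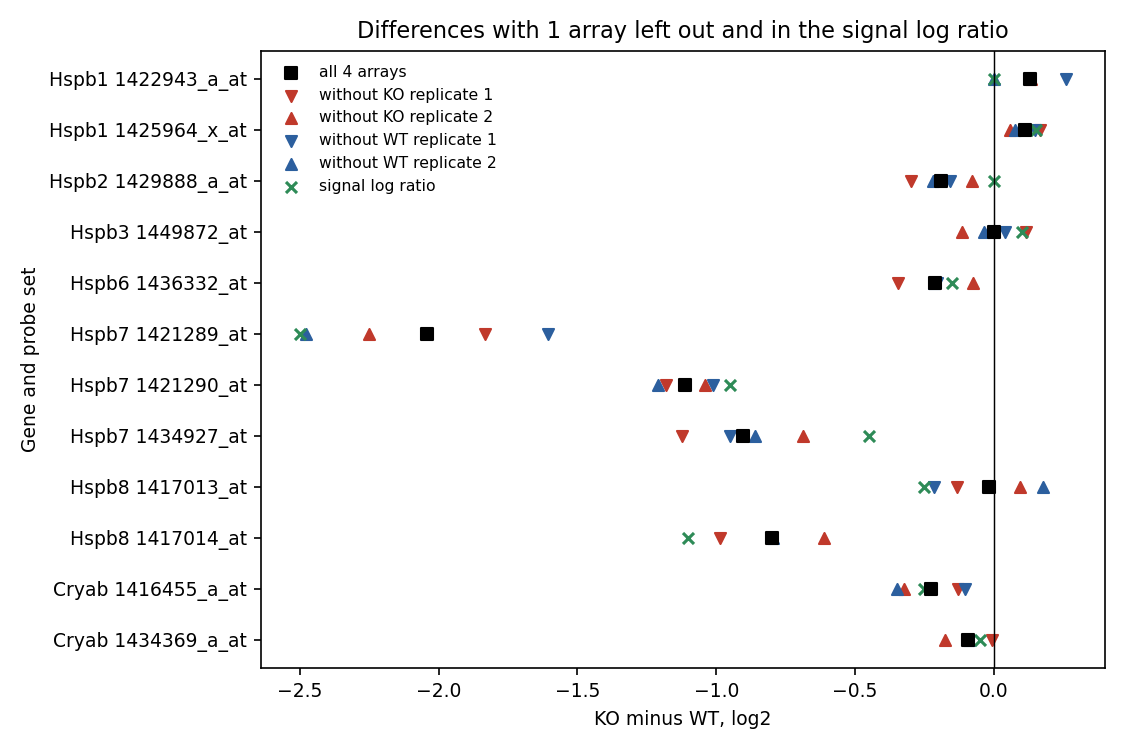
KO minus WT difference (log2, x axis) of the 12 tested probe sets with all 4 arrays (black squares), with 1 KO array left out (red triangles) or 1 WT array left out (blue triangles), and in the deposited signal log ratio (green crosses). All Hspb7 values are below 0, from -2.5 to -0.45, a sign that leaving out 1 array could not change. Those of Hspb3 and of Hspb8 at 1417013_at fall on both sides of 0.

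Genes that act with the small heat shock proteins were taken from lists of 68 genes, of which 55 had a tested probe set. Each gene stood at its brightest tested probe set. The fit called 1 of the 55 lower in KO, beside 0.815% of all 10184 genes tested, and 0 higher, beside 0.481% (6 lower and 4 higher at unadjusted p under 0.05 in limma). Over the whole array, 2959 of the 19065 tested probe sets had an unadjusted p under 0.05 in limma. Every count at that level in the text stands beside this share, and nothing is read from them. The median difference of the 55 was 0.089. That of all tested probe sets, which holds dim ones and several of a gene and so is not a like measure, was 0.014. Of all tested probe sets, 48.2% lay below the 0.00090 of Hspb3, so about that share was negative. The called gene was Mapkapk2, the kinase downstream of p38 that phosphorylates Hspb1. It read 656 and 640 in KO against 1081 and 950 in WT at 1426648_at. It fell by 0.65 ± 0.12 on the log2 scale (adjusted p = 0.0165 in limma), with both KO pools below both WT pools. It did not pass without WT replicate 1 (adjusted p = 0.191), without the filter on detection (adjusted p = 0.166) or without a variance trend (adjusted p = 0.235).

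The other kinases did not pass. Prkaca, the catalytic subunit of protein kinase A, read 1873 and 1652 in KO against 2240 and 2117 in WT at 1447720_x_at (-0.31 ± 0.11, adjusted p = 0.189 in limma). Its dimmer 1450519_a_at stood at -0.56 ± 0.15 (adjusted p = 0.0798). Prkd1, protein kinase D1, stood at 0.25 ± 0.18 (adjusted p = 0.513), with -0.0039 ± 0.19 at its other tested probe set. Of the 12 kinases tested, 9 had a positive difference and 3 a negative one, with a median of 0.093.

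Cochaperones and HSP70 partners, which take over clients from the small heat shock proteins, had positive differences in 18 of 22 tested genes, with a median of 0.16. None of the 22 passed in limma (3 at unadjusted p under 0.05). Dnaja1, a J-domain partner of HSP70, was closest, with 1159 and 1502 in KO against 878 and 936 in WT at 1416288_at (0.54 ± 0.13, adjusted p = 0.0671). Without KO replicate 1 it passed, at 0.73 (adjusted p = 0.00544), and without KO replicate 2 it stood at 0.35 (adjusted p = 0.231). Its dimmer tested probe sets stood at 0.23 ± 0.15 and 0.37 ± 0.13 and did not pass. Bag2, a cochaperone that inhibits the ubiquitin ligase CHIP, stood at 0.28 ± 0.13 (adjusted p = 0.309) and Dnaja2 at 0.23 ± 0.11 (adjusted p = 0.316), with -0.12 to 0.12 at its other tested probe sets.

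The heat shock factor list had 3 tested genes, none of which passed in limma (1 at unadjusted p under 0.05). Hsbp1, a small protein that binds and restrains heat shock factor, stood at 0.27 ± 0.11 (adjusted p = 0.262) and Hsp90aa1, an inducible HSP90, at 0.061 ± 0.091 (adjusted p = 0.788). Dimmer probe sets of both differed more, Hsbp1 by 0.52 ± 0.16 at 1423906_at (adjusted p = 0.142) and Hsp90aa1 by 0.31 ± 0.13 at 1426645_at (adjusted p = 0.294), while Hsp90aa1 stood at -0.0039 ± 0.12 at 1437497_a_at. Hsf2, a heat shock factor, read 52.5 and 37.8 in KO against 46.1 and 45.5 in WT (-0.040 ± 0.30, adjusted p = 0.964), a sign that turned with quantile normalization (0.12). Hsf1 was not analysed here.

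Clients and binding partners had negative differences in 14 of 18 tested genes, with a median of -0.060, and none passed in limma (4 at unadjusted p under 0.05). Des, the muscle intermediate filament protein that Cryab binds, read 2876 and 2537 in KO against 3441 and 3540 in WT at 1426731_at (-0.37 ± 0.099, adjusted p = 0.0928). Without KO replicate 1 it passed, at -0.46 (adjusted p = 0.0224), and without KO replicate 2 it stood at -0.28 (adjusted p = 0.232). Actb, cytoplasmic actin, stood at -0.30 ± 0.10 (adjusted p = 0.189), with 0.10 ± 0.12 at its other probe set, and Cycs, cytochrome c, at -0.23 ± 0.084 (adjusted p = 0.215), with -0.081 to 0.22 at its other tested probe sets. The remaining alpha-crystallin domain genes on the array, Cryaa of the eye lens and Hspb9 and Odf1 of the testis, had no Present call on any array.

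**Figure D4:**
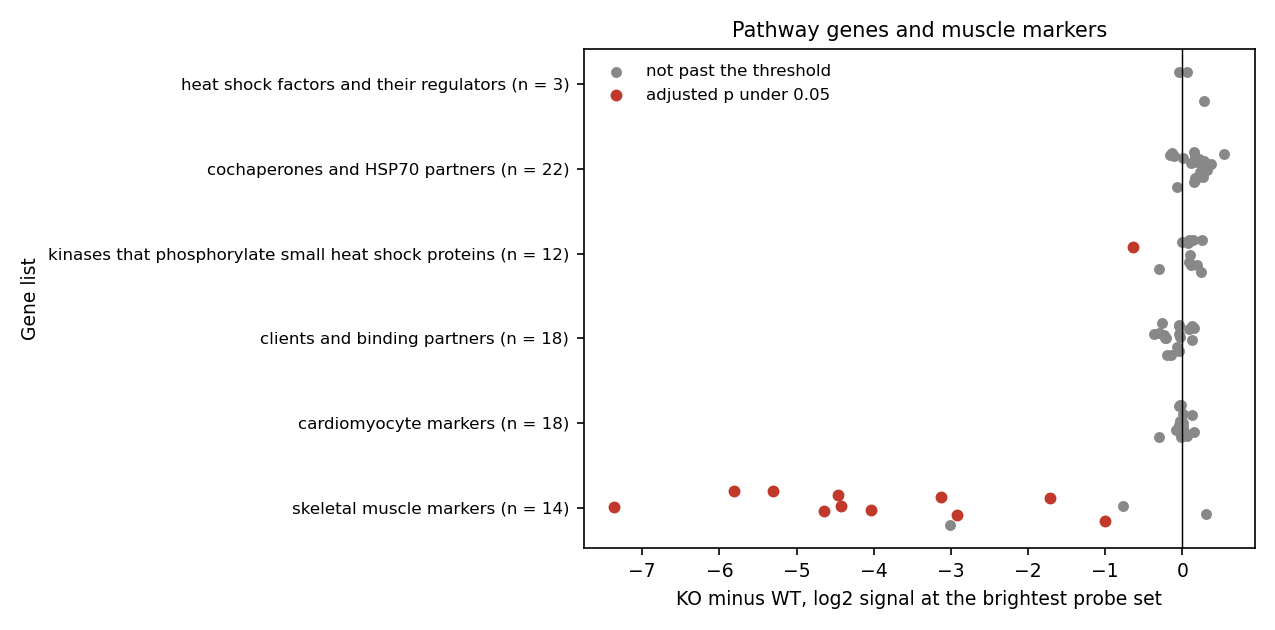
KO minus WT difference of log2 signal at the brightest probe set (x axis) for each tested gene of 4 pathway lists and 2 marker lists (rows, spread vertically for legibility). Red points passed an adjusted p of 0.05 in limma. In the pathway rows 1 point of 55 is red, Mapkapk2 at -0.65, while 11 of 14 skeletal muscle markers are red and lie below 0. Of those 14, 5 were Present on both KO arrays and the rest entered the fit only through WT.

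Skeletal muscle markers moved between the groups too. Of 25 listed genes, 14 were tested, 11 passed as lower in KO and none as higher in limma, with a median of -3.58. Of the 14, 5 were Present on both KO arrays. The rest entered the fit only through WT, where they are high, so their fall is a description. The 1 of the 14 with a positive difference was Casq1, with 2268 and 1903 in KO against 1662 and 1697 in WT. It stood at 0.31 ± 0.11 (adjusted p = 0.209 in limma). The summed signal of the 25 was 3720 and 3449 on the KO arrays against 15903 and 15072 on the WT arrays. Casq1 made up the largest part of both KO sums. Of the 25, 19 had no Present call in KO, against 11 in WT. Mylpf, a fast regulatory myosin light chain, read 80.4 and 62.5 in KO against 2972 and 2654 in WT. Tnnc2, fast troponin C, read 5.6 and 34.6 in KO against 2418 and 2161 in WT. Myl1, a fast essential myosin light chain, read 419 and 377 in KO against 3082 and 2945 in WT. The part of skeletal muscle RNA in the members' differences was not tested.

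Other marker lists moved less. Of 6 tested bone and cartilage genes 3 fell. All 3 had no Present call in KO and entered the fit only through WT, where they are high, so their fall is a description. The list had summed signals of 320 and 398 in KO against 760 and 703 in WT. Of 10 fibroblast genes 2 fell, with sums of 16730 and 17612 in KO against 19344 and 19599 in WT. Of 3 erythroid genes 1 rose, which was Present on both KO arrays but on 1 WT array, so it entered only through KO. No gene passed in limma among 6 smooth muscle (2 at unadjusted p under 0.05), 10 endothelial (1) and 6 macrophage genes (1), and none of 7 lung and airway genes had a Present call. The part of these cells in the members' differences was not tested.

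Genes next to the members in the mouse gene table were read for the same contrast. Of 9 neighbours or overlapping genes tested, 0 passed in limma (3 at unadjusted p under 0.05). A further 5 were not measured or not tested. No neighbour of Hspb7 or Hspb8 was among the 9, so nothing is said of the genes beside these members. Dixdc1, beside Cryab, was closest, with 278 and 260 in KO against 174 and 169 in WT (0.65 ± 0.16, adjusted p = 0.0718). Arl15, beside Hspb3, stood at 0.45 ± 0.19 (adjusted p = 0.279) and Lin37, which overlaps Hspb6, at 0.47 ± 0.20 (adjusted p = 0.281). Psenen, beside Hspb6, stood at 0.20 ± 0.11, Snx18, beside Hspb3, at 0.14 ± 0.14 and Srrm3, beside Hspb1, at 0.074 ± 0.26. Below 0 were 1110032A03Rik, beside Hspb2 and Cryab, at -0.25 ± 0.21, Ywhag, beside Hspb1, at -0.069 ± 0.11, and 2310030G06Rik, which overlaps Cryab, at -0.019 ± 0.21.

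The profile most like that of Hspb7 was sought among 14606 single-gene probe sets Present on all 4 arrays. Likeness was the Euclidean distance between log2 signals, each centred on its own mean, from 1434927_at. The nearest 5 genes were Ccn3 (distance 0.0503), Rbm39 (0.0555), Cd200 (0.0975), Zfp207 (0.0995) and Pla2g6 (0.10). Ccn3, a secreted matrix-associated protein, read 154 and 117 in KO against 248 and 269 in WT at 1426852_x_at, and its other probe set, 1426851_a_at, differed by -0.93 where this one differed by -0.94. Rbm39, a splicing factor, differed by -0.85 at 1446147_at but by 0.020 at its brightest probe set, 1426671_a_at. Zfp207, a zinc finger protein of the mitotic spindle, differed by -1.0 at 1438714_at and by 0.23 at its brightest, 1423545_a_at. Cd200, a membrane glycoprotein, and Pla2g6, a calcium-independent phospholipase, differed by -0.94 and -0.87. With 4 arrays in 2 groups, likeness mostly restates the genotype difference, and no test was made.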

How the data were processed

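Total RNA (6 µg) was biotin-labelled for each of 4 Affymetrix arrays, per the labels' protocols. The submitters' processing notes name MAS5 as the source of the deposited signals, which are intensity values on a linear scale, and each array had a 2%-trimmed mean of 150. Beside the signal stand a detection p-value, its call and a signal log ratio on a log2 scale, per the file headers. The deposited table of the series held the same signals. Of 45101 probe sets, 64 controls were left out. The platform annotation names 1 gene for 34945 of the rest, several for 932 and is silent on 9160, and symbols were updated through a GRCm38.p6 gene table (34741 matched), used for names and neighbours only.

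The 19065 probe sets detected (Present) on both arrays of either group were tested on log2 signal, with signals under 0.1 set to 0.1, which the planned design did not foresee. The fit was limma 3.58.1 (lmFit, eBayes with a variance trend) in R 4.3.3, all 4 arrays, genotype only, two-sided, with Benjamini-Hochberg adjustment and a threshold of 0.05. It was tested on simulated data. Differences are KO minus WT with n = 2 per group, and the number of arrays limits the precision. Where a group had no Present call, "at least" sets the brighter mean against the higher of the dim signal and the lowest Present signal of each array.

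The members, gene lists and marker lists were chosen with earlier results of these data known. The design also planned counts of member probe sets past the threshold, which are left out because the same signals chose the family. Named are all member probe sets, in each pathway list the called genes and the 3 with the smallest p, Hdac2, each member's nearest protein-coding neighbours (those with a tested probe set; 1 other result is not reported here), the 5 profiles most like Hspb7, and the 3 brightest skeletal muscle markers in WT. Casq1 was added as the 1 tested skeletal muscle marker with a positive difference. Alternatives were quantile normalization, median centring, offsets of 16 and 64, no detection filter, detection on every array, a fit with no variance trend or with a robust prior, a replicate block, each array left out and, added after seeing the data, the signal log ratio.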

Additional observations from a re-analysis of the deposited data

How the results depend on the processing

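Across the array 73 probe sets were higher and 183 lower in KO. The counts were 7 and 30 without the filter on detection, 4 and 19 without a variance trend, and 48 to 222 and 110 to 428 with 1 array left out. Hspb7 at its brightest probe set moved from -0.91 to -0.45 in the signal log ratio; the cause was not tested. The pathway genes called lower numbered 1, with 0 without the filter, 0 without a trend and 0 to 2 with 1 array left out, and those called higher 0, with 0 to 1. The titles number the pools alike in both groups and do not say whether same-numbered pools were paired. Deviations of the same-numbered arrays from their group means correlated at r = -0.011 over 19065 probe sets. A value taken over all probe sets cannot exclude a pairing. A replicate block gave 271 higher and 450 lower across the array, and 1 pathway gene higher and 2 lower. Among named genes near 0, Hsf2 turned to 0.12 and 2310030G06Rik to 0.058 with quantile normalization. With 1 array left out, Hsf2 ran from -0.28 to 0.20, Ywhag from -0.15 to 0.011 and 2310030G06Rik from -0.12 to 0.078. Detection limits what can be said of Hspb8 at 1456434_x_at, with no Present call, and of Cryab at 1435837_at, Present on 1 array of each group.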

Other observations

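Genes named after the small heat shock proteins, but outside the family, were looked up after the member values were seen. Hspbp1, an exchange factor that inhibits HSP70, read 366 and 282 in KO against 474 and 444 in WT at 1416894_at, with no overlap (-0.51 ± 0.15, adjusted p = 0.133 in limma). Hspb11, a part of the intraflagellar transport machinery, read 240 and 208 in KO against 199 and 219 in WT at 1453016_at (0.098 ± 0.17, adjusted p = 0.821). Hspbap1, which binds Hspb1, had no Present call at any of its probe sets.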
